A study of Mus musculus with 2 samples.

Results

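Cd14, 2 toll-like receptors (Tlr2 and Tlr4), the Tlr4 partner Ly96, the adaptor Myd88, the inhibitor Tnfaip3 and the NF-kappaB subunits Nfkb1 and Rela were measured in single aortic cells, as 8 of 19357 genes found in either of 2 libraries. The 8 genes were taken by name. They had been chosen by their UMI levels in the diabetic and control cells of these same libraries, so the values are a description without a test. The diabetic library came from male Apoe-/- C57BL/6 mice injected at 6 weeks of age with streptozotocin, a toxin of insulin-producing beta cells, 5 times on consecutive days at a daily 55 mg/kg. The control library came from male Apoe-/- C57BL/6 mice injected with citrate vehicle. Both groups were followed for 10 weeks and were 17 weeks old, and aortic cells of 4 mice per group were digested, pooled, incubated and sorted for 7AAD exclusion and calcein uptake. Loss of apolipoprotein E makes mice prone to atherosclerosis, and both groups carried it, so no group with intact Apoe was compared. The series asks about the activator protein-1 complex in diabetes-associated atherosclerosis.

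Toll-like receptors bind microbial products and some products of damaged tissue. CD14, a surface protein of monocytes and macrophages, hands lipopolysaccharide to the complex of TLR4 with MD-2, the product of Ly96, and also aids TLR2, a receptor for bacterial lipoproteins. MYD88 carries the signal from both receptors to kinases that release NF-kappaB from its cytoplasmic inhibitors. NFKB1 gives the p50 subunit and RELA the p65 subunit, which carries the activation domain. TNFAIP3, also called A20, is a ubiquitin-editing enzyme whose gene is an NF-kappaB target and which shuts the pathway down again. In arteries the pathway is best known in macrophages and in endothelium at sites of disturbed flow.

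Tlr2 and Tnfaip3 had a match to the NF-kappaB consensus motif (searched on both strands) in the 250 bases before their RefSeq start on GRCm38.p6, and these sites are shown because both genes were past 1.5-fold in macrophages, in opposite directions. RefSeq promoters were at hand for 4 of the 8 genes (Tlr2, Myd88, Tnfaip3 and Rela), and the windows of Myd88 and Rela held no match. Of all 32851 promoter windows of that length, 7.25% held a match. Each line has 30 bases, 5′ to 3′ on the minus strand on which both genes lie, with the match in capitals.
Tlr2, chr3:83841761-83841790: aggacacctGGGGAATTCCCacacggagcc
Tnfaip3, chr10:19015516-19015545: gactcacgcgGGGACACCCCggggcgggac
Tnfaip3, chr10:19015411-19015440: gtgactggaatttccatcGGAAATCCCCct
The Tlr2 run of 11 bases holds overlapping matches and began 173 bases before the start, and it lies upstream of the gene as GENCODE vM21 annotates it. The Tnfaip3 matches began 125 and 12 bases before the start and lie in an intron of a longer transcript. A second Tnfaip3 promoter window held no match. These matches are letters in a window, and binding was not measured.

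In GENCODE vM21 on mm10, Cd14 spans chr18:36725067-36726798, Tlr2 chr3:83836272-83841767, Tlr4 chr4:66827584-66930284 and Ly96 chr1:16688051-16709611. Myd88 spans chr9:119335934-119341411, Tnfaip3 chr10:19000910-19015657, Nfkb1 chr3:135584655-135691547 and Rela chr19:5637483-5648130. All 8 code for proteins. Myd88 is annotated over parts of Slc22a14, on the same strand, and of Acaa1a, on the opposite strand. Nfkb1 is annotated over the unnamed model Gm43430, on the same strand. UMIs from stretches that Myd88 and Nfkb1 share on the same strand cannot be assigned with certainty.

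The diabetic library had 3458 barcodes and 17647604 unique molecular identifiers (UMIs), and the control library 4215 barcodes and 15314749 UMIs. Of these, 2524 diabetic and 3060 control cells carried 1 of 13 deposited classes, with medians of 4477.5 and 3760 UMIs per cell, and 8 annotated barcodes occurred in both libraries. Apoe had 63 UMIs in diabetic and 48 UMIs in control annotated cells. Ratios were formed in the 7 classes with at least 50 cells in each library. These were macrophages (Mac, 229 diabetic and 510 control cells), endothelial cells (ECs, 228 and 366), smooth muscle cells (VSMCs-2, 856 and 496, and VSMCs-1, 159 and 134) and fibroblasts (Fib-2, 533 and 907, Fib-1, 245 and 386, and Fib-3, 67 and 117). Levels are UMIs of a gene scaled to the summed UMIs of the class (CPM). All intervals are 95% intervals that cover counting error only, since there was 1 library per group and no replicate. A gene is called past the fold in a class where the diabetic over control ratio was at least 1.5-fold either way and both libraries together held at least 30 UMIs. This is a rule of size, with no p-value.

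All 10 macrophage markers (Cd68, Adgre1, C1qa, C1qb, C1qc, Csf1r, Lyz2, Mrc1, Fcgr3 and Tyrobp) had UMIs in Mac of both libraries. Their sum was 28472 CPM in diabetic and 44233 CPM in control Mac, a ratio of 0.644. Detection alone does not mark the class, since VSMCs-2 also had UMIs of all 10, at 45.3 CPM in diabetic and 206 CPM in control cells. At least 1% of UMIs came from these markers in 201 of 229 diabetic and 507 of 510 control Mac cells. The median share of a cell's UMIs from these markers was 2.81% in diabetic and 4.64% in control Mac.

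Cd14 was lower in diabetic than in control macrophages by the widest margin of the 8 genes. Diabetic Mac held 947 Cd14 UMIs, a level of 838 CPM (786 to 893), and control Mac held 5737 UMIs, a level of 2193 CPM (2136 to 2250). The ratio was 0.38 (0.36 to 0.41). The intervals of both levels lay far apart. At equal depth, with each cell thinned to 1000 UMIs, 47.7% of 199 diabetic Mac cells and 75.3% of 497 control Mac cells had a Cd14 UMI. Without thinning the shares were 71.6% and 93.3%. Cells with 4 or more Cd14 UMIs at that depth made up 5.53% of diabetic and 28.4% of control Mac, and the median cell had 0 UMIs in the diabetic and 2 UMIs in the control library. The shares with 1 UMI were close, 21.1% in diabetic and 20.1% in control Mac. The difference was not held by a single cell, since the cell with most Cd14 UMIs held 5.17% of them in diabetic and 1.08% in control Mac. Whether all cells shifted, or the share of cells low in Cd14 differed, was not tested.

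**Figure D1:**
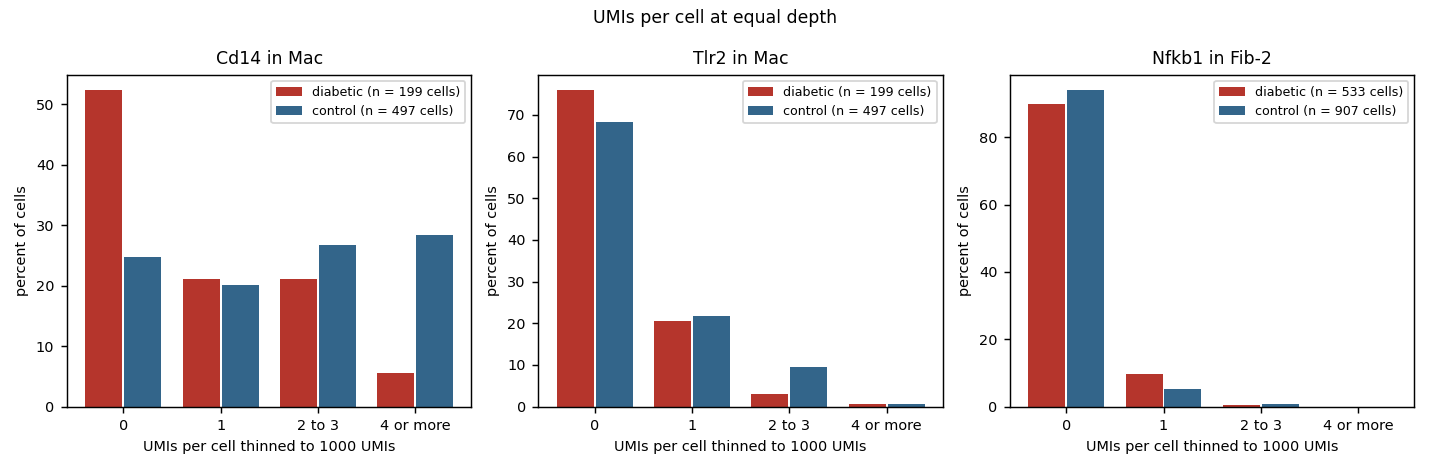
Percent of cells (y axis) by UMIs per cell after thinning to 1000 UMIs (x axis) for Cd14 and Tlr2 in Mac and Nfkb1 in Fib-2, diabetic cells in red and control cells in blue. In Mac, 52.3% of diabetic and 24.7% of control cells had 0 Cd14 UMIs, and 5.53% and 28.4% had 4 or more.

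The other myeloid classes were small. Cd14 in foam cells, lipid-laden macrophages, was 1122 CPM in the diabetic library (17 cells) and 1916 CPM in the control library (35 cells). Monocyte-derived dendritic cells (MoDC) had 477 CPM (30 cells) and 1382 CPM (27 cells). Monocytes (Mono) had 1744 CPM in 19 diabetic cells and 2353 CPM in 9 control cells, where 1 cell held 37.4% of the UMIs. Within the diabetic library Cd14 CPM ran from Mono over foam cells and Mac down to MoDC, with no overlap between the intervals of neighbours. In diabetic Mono, foam cells and MoDC, however, 1 cell held up to 24.5% of the Cd14 UMIs. The shares of thinned cells with a Cd14 UMI had overlapping intervals for all neighbours. In the same order these were 48.8 to 90.9%, 38.3 to 85.8%, 40.6 to 54.9% and 12.3 to 45.9%. The order of neighbours is therefore not resolved. Within the control library the CPM interval of Mono overlapped those of Mac and foam cells. Mac lay above foam cells and foam cells above MoDC. By thinned share, control foam cells (85.7%) stood above control Mac (75.3%), and the intervals of these 4 classes overlapped, so no order is read there. Each of these 4 classes had a lower Cd14 CPM in the diabetic library, and the intervals of the 2 libraries overlapped in Mono alone. In Mono 2 other measures ran the other way. The share of thinned cells with a Cd14 UMI was 73.7% in diabetic and 66.7% in control Mono. Cd14 UMIs per 1000 macrophage marker UMIs were 64.4 and 45.4 in Mono, but 29.0 and 41.5 in foam cells and 37.7 and 62.9 in MoDC. No direction is read for Mono.

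Cd14 UMIs outside the myeloid classes were few. VSMCs-2 had 13 diabetic and 31 control UMIs, levels of 2.27 and 11.1 CPM with a ratio of 0.20 (0.10 to 0.40). Fib-2 had 19 and 121 UMIs, levels of 8.98 and 33.3 CPM with a ratio of 0.27 (0.16 to 0.44). One control cell held 30.6% of those Fib-2 UMIs, and without the top cell of each library the ratio was 0.37. ECs had 9 and 30 UMIs, levels of 10.5 and 27.4 CPM with a ratio of 0.38 (0.16 to 0.83). T cells, which should lack Cd14, had a Cd14 UMI in 1 of 55 diabetic and 1 of 12 control cells thinned to 1000 UMIs, or 1.82% and 8.33% (3.33% and 7.69% unthinned, at median depths of 1423 and 2432 UMIs). The thinned shares in VSMCs-2 (0.234% in diabetic and 0.806% in control cells), Fib-2 (0.563% in diabetic and 2.43% in control cells) and ECs (0.909% in diabetic and 1.75% in control cells) were below these. The T cell shares rest on 1 cell in each library, with intervals of 0.046 to 9.72% in diabetic and 0.211 to 38.5% in control cells. In the control library 1 T cell held all 6 Cd14 UMIs of its class. Of thinned NKT Cells, 0 of 51 diabetic and 2 of 32 control cells (6.25%) had a Cd14 UMI. Before thinning, 1 control NKT cell held 78.6% of 14 UMIs. Free RNA and expression by the cells themselves were therefore not told apart, and no difference in expression is read from VSMCs-2, Fib-2 or ECs. In the same classes the macrophage marker sum had ratios of 0.220, 0.214 and 0.589.

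**Figure D2:**
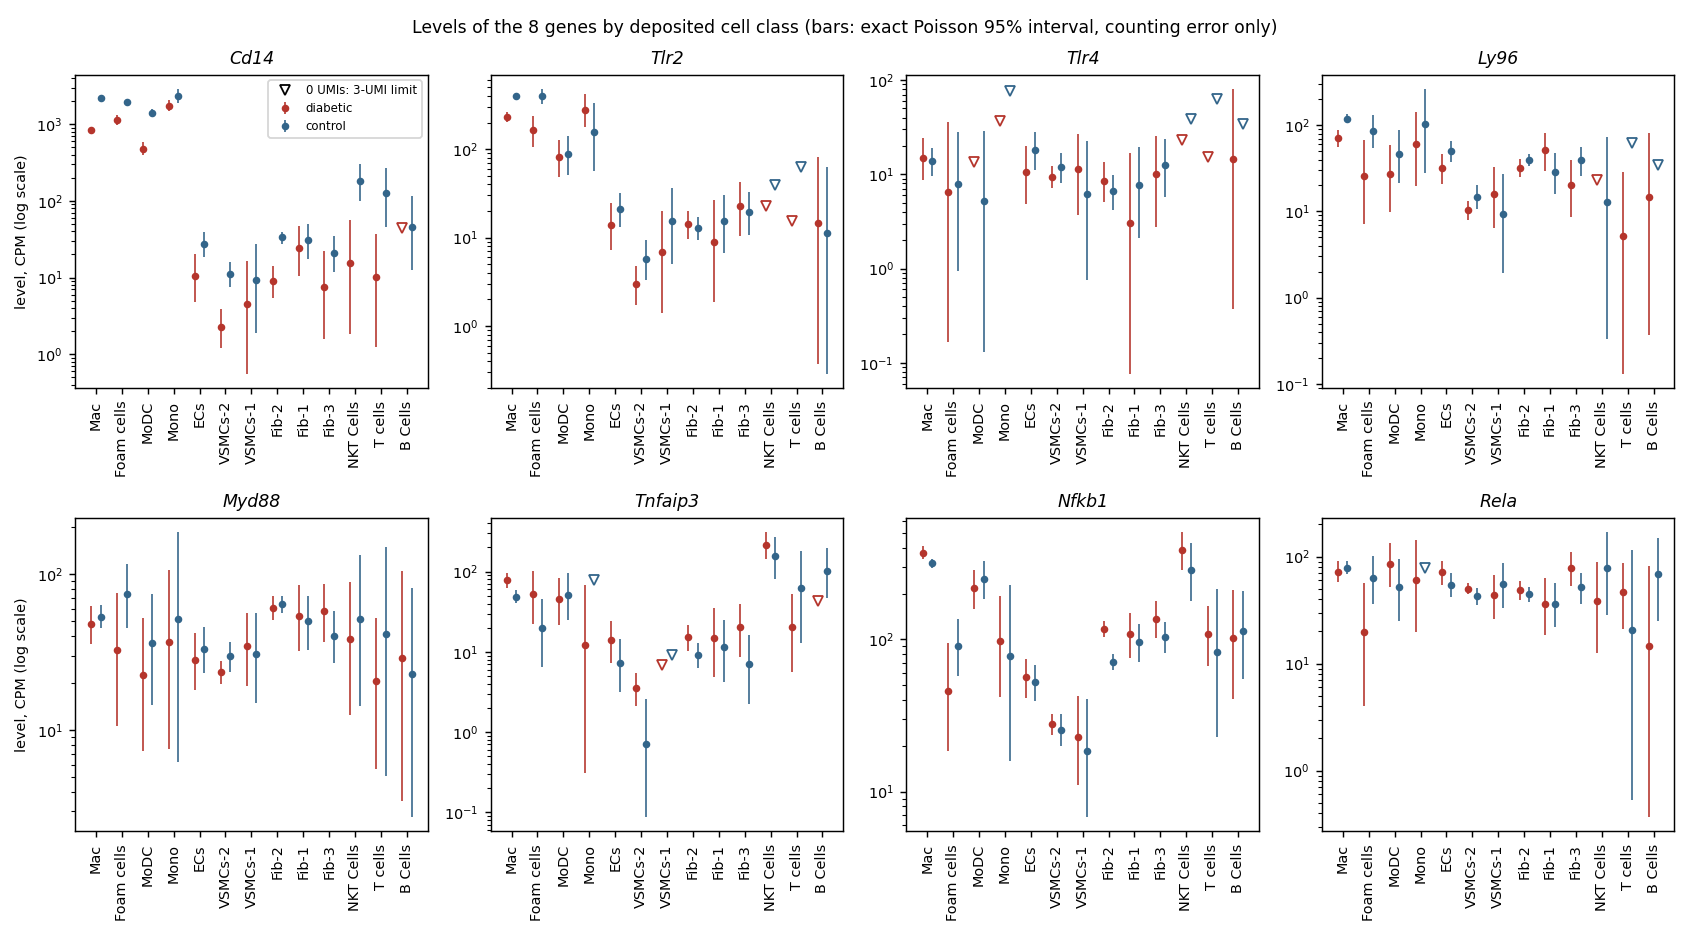
Level in CPM on a log axis (y) of each of the 8 genes in the 13 deposited classes (x), diabetic in red left of control in blue, with exact Poisson 95% intervals; open triangles mark 0 UMIs at the level of 3 UMIs. Cd14 in Mac stood at 838 CPM in the diabetic and 2193 CPM in the control library, while Rela and Myd88 stayed close in most large classes.

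Tlr2 and Ly96 were also lower in diabetic macrophages, by smaller ratios than Cd14. Tlr2 had 262 UMIs in diabetic Mac, 232 CPM (205 to 262), and 1038 UMIs in control Mac, 397 CPM (373 to 422), a ratio of 0.58 (0.51 to 0.67). The share of thinned Mac cells with a Tlr2 UMI was 24.1% in diabetic and 31.8% in control cells. Ly96 had 80 UMIs in diabetic Mac, 70.8 CPM (56.2 to 88.1), and 313 in control Mac, 120 CPM (107 to 134), a ratio of 0.59 (0.46 to 0.76). Its thinned shares were 8.54% and 10.9%, and the ratio of thinned UMIs was 0.847, within 1.5-fold. Tlr4 was sparse, with 17 UMIs in diabetic Mac (15.0 CPM, 8.77 to 24.1) and 36 in control Mac (13.8 CPM, 9.64 to 19.1). Its ratio of 1.09 had an interval of 0.58 to 2.0, so a difference within these bounds was not detectable at this depth. Whether the ratios of Tlr4 and of its partners Cd14 and Ly96 differ from each other was not tested.

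Outside macrophages the intervals of Tlr2 and Tlr4 overlapped in ECs and Fib-2 of both libraries and in control VSMCs-2. In diabetic VSMCs-2 the intervals did not overlap, and Tlr4 was the higher. Tlr2 was at 2.97 CPM in diabetic and 5.75 CPM in control VSMCs-2 (17 and 16 UMIs, ratio 0.52, 0.25 to 1.09), and at 14.2 and 12.9 CPM in Fib-2 (30 and 47 UMIs, ratio 1.10). In ECs Tlr2 was 14.1 CPM in diabetic and 21.0 CPM in control cells, a ratio of 0.67 that stayed just inside the 1.5-fold limit. Neither library had a Tlr2 UMI in T cells, where 0 of 55 thinned diabetic cells allows a share of cells with a Tlr2 UMI of up to 5.45% and 0 of 12 control cells up to 25%. This limit is not one on the share of cells that express Tlr2. Tlr4 was at 9.44 CPM in diabetic and 11.9 CPM in control VSMCs-2 (54 and 33 UMIs, ratio 0.80) and at 8.51 and 6.60 CPM in Fib-2 (18 and 24 UMIs, ratio 1.29). The intervals of Tlr4 in Mac, VSMCs-2 and ECs overlapped in both libraries. After thinning, on no more than 8 UMIs per class and library, its ratio was 0.425 in Fib-2, 2.03 in VSMCs-2 and 2.50 in Mac, so no direction is read for Tlr4.

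Tlr2, Tlr4, Myd88 and Rela had ratios on both sides of 1. Of the 8 genes, Ly96 alone was past the fold in both directions. It was past the fold toward lower in diabetic ECs (27 UMIs, 31.6 CPM, against 55 UMIs and 50.3 CPM in control ECs, ratio 0.63, 0.38 to 1.01) and in diabetic Fib-3 (8 UMIs, 20.1 CPM, against 28 UMIs and 39.0 CPM, ratio 0.52, 0.20 to 1.16). It was past the fold toward higher in diabetic Fib-1 (17 UMIs, 51.2 CPM, against 15 UMIs and 28.8 CPM in control Fib-1). That Fib-1 ratio of 1.78 had an interval of 0.84 to 3.83 and was 1.14 after thinning. In Fib-2, with more UMIs, Ly96 had 68 and 144 UMIs, 32.1 CPM in diabetic and 39.6 CPM in control cells, a ratio of 0.81 (0.60 to 1.09). Of these intervals only the one in Mac excluded 1.

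Myd88 and Rela, the adaptor and the p65 subunit, were within 1.5-fold, before thinning, in most classes with 30 UMIs. Myd88 was within 1.5-fold in all 6 classes in which it reached 30 UMIs. In Mac it had 47.8 CPM in diabetic and 53.5 CPM in control cells (ratio 0.89, 0.64 to 1.23), in VSMCs-2 23.6 and 29.8 CPM (0.79, 0.60 to 1.05), and in Fib-2 61.0 and 64.1 CPM (0.95, 0.76 to 1.19). Rela was within 1.5-fold in 6 of 7 classes, with 72.6 CPM in diabetic and 79.1 CPM in control Mac (0.92, 0.70 to 1.19), 50.01 and 42.8 CPM in VSMCs-2 (1.17, 0.94 to 1.46), and 71.4 and 54.9 CPM in ECs (1.30, 0.90 to 1.89). In Fib-3 it reached the limit, at 78.1 CPM in diabetic and 51.6 CPM in control cells (31 and 37 UMIs, ratio 1.51, 0.91 to 2.51). In every class where Rela had 30 UMIs its interval included 1. Thinning moved Rela past the limit in ECs, to a ratio of 2.49 with 9.55% of diabetic and 4.08% of control cells holding a UMI, and in VSMCs-1, to 0.300 on 3 diabetic and 9 control UMIs.

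Nfkb1 was higher in diabetic than in control fibroblasts of the class Fib-2. It had 248 UMIs in diabetic Fib-2, 117 CPM (103 to 133), and 258 UMIs in control Fib-2, 71.0 CPM (62.6 to 80.2), a ratio of 1.65 (1.38 to 1.97). The intervals did not overlap, and no cell held over 2.42% of these UMIs. The share of thinned Fib-2 cells with an Nfkb1 UMI was 10.1% in diabetic and 6.06% in control cells. In the other fibroblast classes Nfkb1 was 136 CPM in diabetic and 103 CPM in control Fib-3 (ratio 1.32, 0.91 to 1.90) and 108 and 95.9 CPM in Fib-1 (1.13, 0.72 to 1.77), both within the limit. Markers of other cell types also differed in Fib-2. The erythroid sum, with 6 of 6 markers detected in both libraries, was 7993 CPM in diabetic and 139 CPM in control Fib-2, and Nfkb1 had a ratio of 1.67 without cells with over 10% haemoglobin UMIs. The smooth muscle sum (8 of 8 markers in both) had a ratio of 1.47, the pericyte sum (5 of 6 in both, Higd1b at 0) 1.57 and the fibroblast sum (8 of 8 in both) 0.735, and the part of these in the Fib-2 results was not tested. Mac had 372 CPM in diabetic and 316 CPM in control cells, a ratio of 1.18 (1.04 to 1.32) that became 0.989 when each cell had the same weight. VSMCs-2 had 27.8 and 25.5 CPM, and ECs 56.2 and 52.1 CPM, with ratios of 1.09 and 1.08. Across classes Mac and the class labelled NKT Cells had the highest Nfkb1 levels. NKT Cells had 384 CPM in 51 diabetic and 286 CPM in 32 control cells, and in both libraries their intervals overlapped those of Mac. MoDC came next, at 216 CPM in diabetic and 248 CPM in control cells. The control MoDC interval (183 to 329) also overlapped that of Mac. After thinning, control MoDC had 444 CPM, on 12 UMIs, and control Mac 322 CPM.

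Tnfaip3 was past the fold toward higher in diabetic Mac and Fib-2. Mac had 88 UMIs in the diabetic library, 77.9 CPM (62.5 to 96.0), and 128 in the control library, 48.9 CPM (40.8 to 58.2), a ratio of 1.59 (1.20 to 2.10). The thinned shares were close, 6.03% of diabetic and 5.43% of control cells. The Mac ratio dropped under 1.5-fold with trimmed mean scaling (1.47), with equal weight per cell (1.45) and after thinning (1.25). Fib-2 had 32 UMIs in diabetic cells, 15.1 CPM, and 33 in control cells, 9.08 CPM, a ratio of 1.67 (0.99 to 2.80). In the other large classes the gene was under 30 UMIs, with 20 UMIs in diabetic and 2 in control VSMCs-2 (3.497 and 0.719 CPM, ratio 4.87, 1.18 to 42.9), 12 and 8 UMIs in ECs, and 8 and 5 UMIs in Fib-3. VSMCs-1 held 0 Tnfaip3 UMIs in both libraries. The class labelled NKT Cells had the highest Tnfaip3 level in both libraries, at 215 CPM (143 to 311) in diabetic and 156 CPM (80.5 to 272) in control cells.

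**Figure D3:**
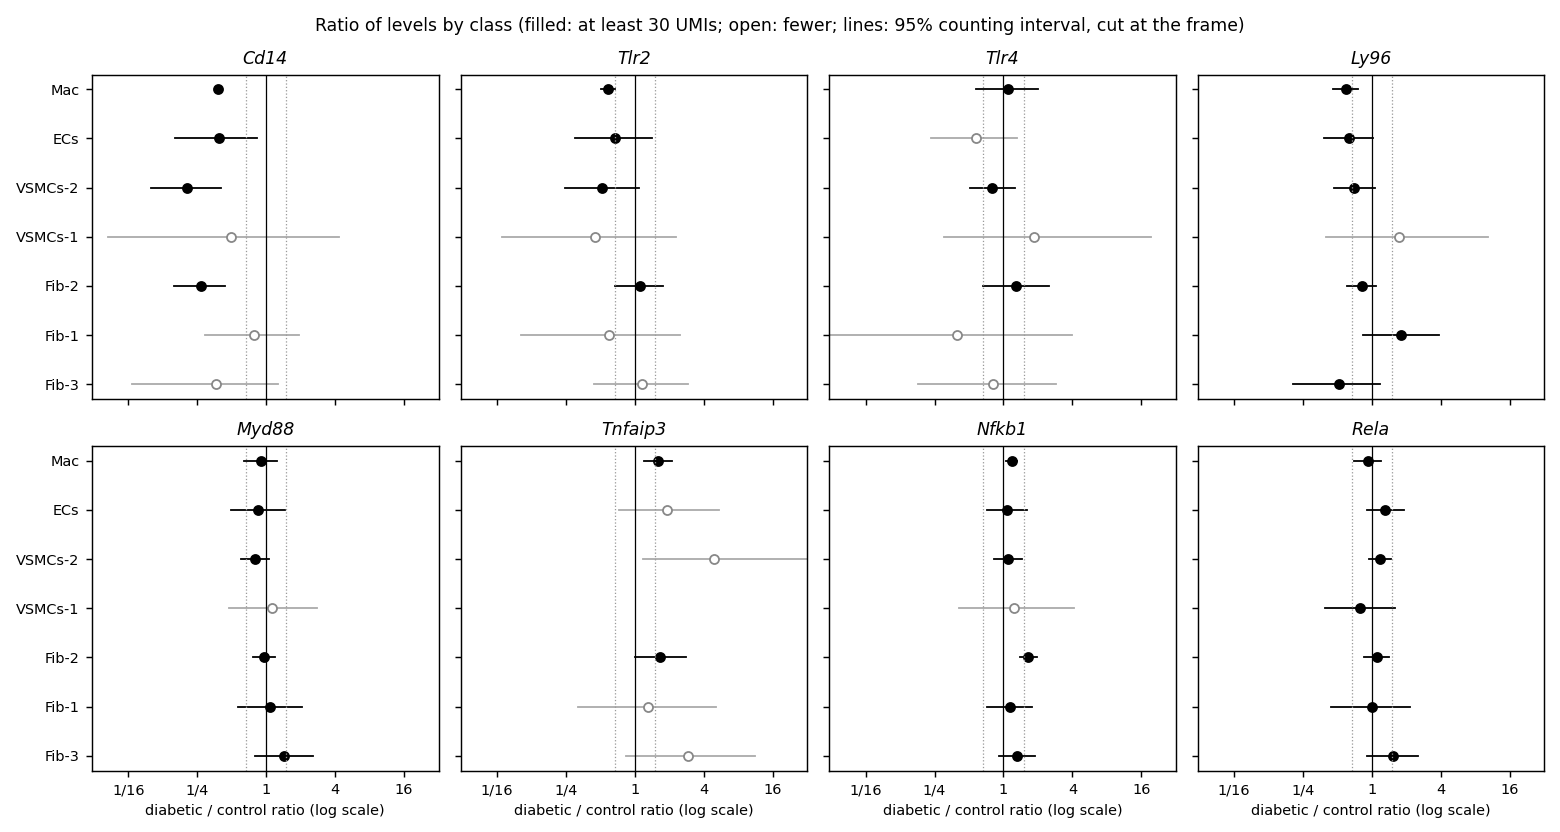
Diabetic over control ratio on a log axis (x) of each of the 8 genes in 7 classes (y), with 95% counting intervals; filled points rest on at least 30 UMIs, dotted lines mark 1.5-fold. Cd14 lies left of 1 in every class shown, at 0.38 in Mac, Nfkb1 lies right of 1 in every class shown, at 1.65 in Fib-2, and Tnfaip3 in VSMCs-1 is missing because both libraries had 0 UMIs.

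Set beside all genes, the counts of the 8 genes past the fold were small numbers. In Mac 3 of 8 were lower (Cd14, Tlr2, Ly96), where 9.37% of 7373 genes were, and 1 of 8 was higher (Tnfaip3), where 13.9% were. Fib-2 had 2 of 8 higher (Tnfaip3, Nfkb1), where 8.59% of 9281 genes were, and 1 lower (Cd14), where 6.17% were. VSMCs-2 had 2 of 7 lower (Cd14, Tlr2), against 5.69% of 9729 genes, and none higher, against 8.63%. ECs had 2 of 6 lower (Cd14, Ly96), against 8.53% of 6096 genes, and none higher, against 8.22%. Fib-3 had 1 of 4 each way (Rela higher, Ly96 lower), against 7.998% higher and 13.6% lower of 4026 genes. Fib-1 had 1 of 4 higher (Ly96), against 7.86% of 3423 genes, and none lower, against 11.9%. In VSMCs-1 only Rela reached 30 UMIs and it was within the limit, where 8.74% of 3032 genes were higher and 10.4% lower. Since the same contrast was known when the 8 genes were picked, these shares stand side by side and nothing is read from them. The median log2 ratio of the 8 genes in Mac was -0.14, beside 0.06 over all genes with 30 UMIs.

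Over all annotated cells Cd14 had a ratio of 0.22, Tlr2 0.33 and Ly96 0.47, with 3 of 8 genes past the fold toward lower, where 11.2% of 12753 genes were, and none higher, where 10.3% were. Mac made up 229 of 2524 diabetic and 510 of 3060 control annotated cells, so these ratios combine the number of macrophages with the level within them. Nfkb1 (0.80), Myd88 (0.75), Tlr4 (0.88), Rela (1.01) and Tnfaip3 (1.02) were within 1.5-fold over all cells. The ratio of Nfkb1 over all cells lay below 1, although its ratio lay above 1 in each of the 7 large classes. Barcodes without a class, not used elsewhere, had lower CPM of all 8 genes in the diabetic library. Their ratios ran from 0.14 for Cd14 (98.6 CPM in diabetic and 720 CPM in control barcodes) to 0.58 for Nfkb1 (86.5 and 150 CPM).

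The Mac cells of the 2 libraries differed in other markers, which stand beside the Mac results. Of the macrophage markers, C1qa was 3983 CPM in diabetic and 7353 CPM in control Mac (ratio 0.54) and Adgre1 247 and 439 CPM (0.56), while Tyrobp was 2471 and 2591 CPM (0.95). All 8 foam cell markers had UMIs in both libraries and their sum had a ratio of 1.18, with Spp1 at 386 CPM in diabetic and 79.9 CPM in control Mac and Gpnmb at 56.7 and 8.79 CPM. Of the same list Ctsd (0.66), Trem2 (0.78) and Cd9 (0.86) had ratios below 1. The sum of the 10 monocyte and dendritic cell markers, all with UMIs in both libraries, was 11044 CPM in diabetic and 14544 CPM in control Mac (0.76), but single markers ran both ways, among them Cd209a (2.54), Itgax (2.38), Ccr2 (2.06) and Plac8 (1.66) against H2-Ab1 (0.68). All 6 neutrophil markers had UMIs in both libraries, with sums of 5279 and 3681 CPM (ratio 1.43). The T cell sum was 805 and 437 CPM, with all 8 markers detected in both, and the smooth muscle sum 745 and 277 CPM, also with 8 of 8. The ribosomal share of UMIs was 22.5% in diabetic and 17.8% in control Mac, and 30 diabetic and 13 control Mac cells were under 1000 UMIs. The part of these differences in the Mac ratios was not tested, apart from the following measurements. In Mac cells with at least 1% of UMIs from the macrophage markers (201 diabetic and 507 control cells), Cd14 was 896 and 2203 CPM (ratio 0.407), Tlr2 248 and 399 CPM (0.622), Ly96 79.1 and 120 CPM (0.657), and Tnfaip3 83.1 and 49.2 CPM (1.69). This choice of cells was made after the data were seen. Per 1000 macrophage marker UMIs, Mac had 29.4 Cd14 UMIs in the diabetic and 49.6 in the control library, a ratio of 0.59 (0.55 to 0.64). On the same scale Tlr2 had 8.15 and 8.97 UMIs, a ratio of 0.91 (0.79 to 1.04), and Ly96 had 2.49 and 2.70 UMIs, a ratio of 0.92 (0.71 to 1.18). Tlr2 and Ly96 were thus lower in step with this marker sum, within counting error, and Cd14 was lower than the marker sum. Most UMIs of the sum came from Lyz2 (ratio 0.66), C1qa (0.54), C1qb (0.59) and C1qc (0.62). Of the other markers, Tyrobp (0.95), Mrc1 (0.93), Csf1r (0.76) and Cd68 (0.65) had higher ratios than Tlr2 and Ly96, while Adgre1 and Fcgr3 (each 0.56) had lower ones. The reading therefore depends on which markers are summed.

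The same scale was used in other classes. Cd14 UMIs per 1000 macrophage marker UMIs were 50.2 in diabetic and 54.2 in control VSMCs-2, 41.3 and 63.3 in ECs, and 124 and 98.3 in Fib-2, with intervals of the ratio that all included 1. Ly96 had 124 and 116 UMIs on this scale in ECs, 228 and 71.7 in VSMCs-2, then 444 and 117 for Fib-2 cells, where Mac had 2.49 and 2.70. Its ratio of diabetic over control on this scale was 1.07 (0.65 to 1.72) in ECs, while Fib-2 had 3.80 (2.80 to 5.10) and VSMCs-2 had 3.18 (2.10 to 4.86). The marker UMIs divided by were few, 153 in diabetic and 1231 in control Fib-2, and 259 and 572 in VSMCs-2. By CPM, Ly96 had ratios of 0.81 in Fib-2 and 0.70 in VSMCs-2, so no higher Ly96 is read from this scale. These intervals leave out the counting error of the marker UMIs.

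**Figure D4:**
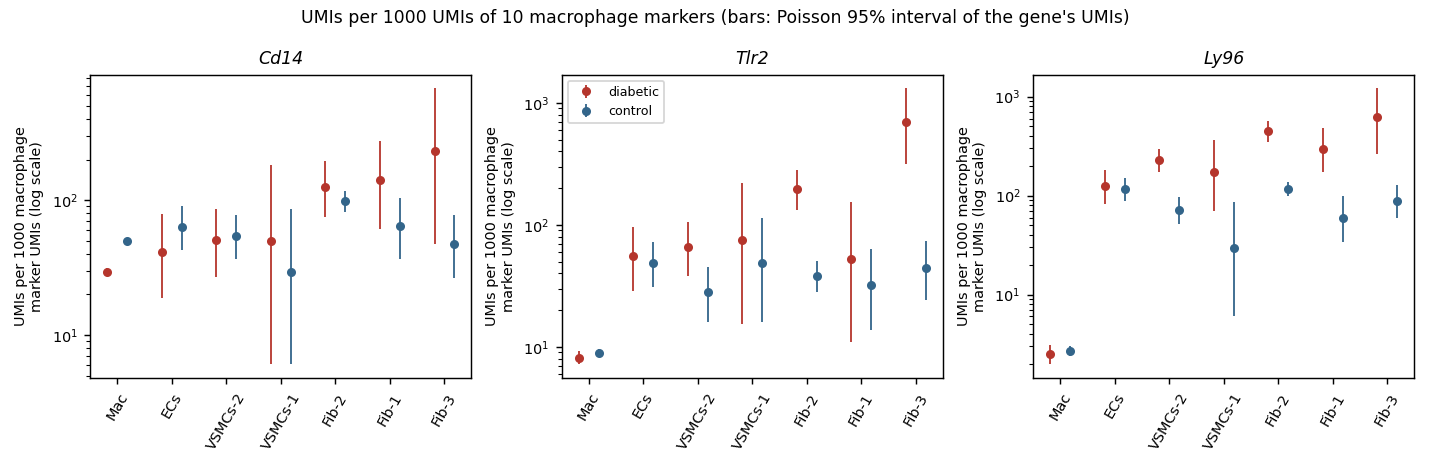
UMIs of Cd14, Tlr2 and Ly96 per 1000 UMIs of the 10 macrophage markers on a log axis (y) in 7 classes (x), diabetic in red left of control in blue, with Poisson 95% intervals of the gene's UMIs. In Mac, Cd14 stood at 29.4 in the diabetic and 49.6 in the control library, and Ly96 stood at 2.49 and 2.70, below its values in the other 6 classes.

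Mac cells were also split, after the data were seen, by a UMI of Lyve1, Folr2, Cd163 or Timd4, markers of tissue-resident macrophages, at 1000 UMIs per cell. Cells with such a UMI (109 diabetic and 338 control) had Cd14 at 905 CPM in diabetic and 2015 CPM in control cells, a ratio of 0.449. Cells without one (90 and 159) had 763 and 2498 CPM, a ratio of 0.306. Cd14 was thus lower in diabetic cells of both kinds. Tlr2 was 250 and 366 CPM (0.681) in cells with a resident marker UMI and 215 and 456 CPM (0.471) in cells without one. Tnfaip3 was 71.8 and 49.9 CPM with a resident marker UMI, a ratio of 1.44, and 85.0 and 47.6 CPM without one. Nfkb1 was 378 and 319 CPM with, and 379 and 313 CPM without, so the kinds of cells had close Nfkb1 levels.

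Cd14 and Tlr2 were found together in thinned Mac cells. Among cells with a Cd14 UMI, 30.5% of 95 diabetic and 37.2% of 374 control cells also had a Tlr2 UMI, against 18.3% of 104 diabetic and 15.4% of 123 control cells without Cd14. In the control library the 2 intervals did not overlap (32.3 to 42.3% and 9.56 to 23.1%), and in the diabetic library they did (21.5 to 40.8% and 11.4 to 27.1%). Nfkbia, which encodes the NF-kappaB inhibitor IkappaB-alpha and is itself an NF-kappaB target, had a UMI in 46.3% of diabetic and 69.5% of control cells with Cd14, and in 45.2% and 50.4% of those without. Tlr4 and Ly96 were too sparse for this, with 5 Tlr4-positive thinned cells in each library. Among the few cells with a Tnfaip3 UMI, 9 of 12 diabetic and 18 of 27 control cells had Nfkbia, against 43.9% and 64.7% of cells without Tnfaip3.

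Around the 8 genes, lists of pathway genes were counted by the same rule of size. The shares of all genes past the fold stand beside these counts. They were 13.9% higher and 9.37% lower in Mac, 8.22% and 8.53% in ECs, and 8.63% and 5.69% in VSMCs-2. Fib-2 had 8.59% and 6.17%, Fib-1 7.86% and 11.9%, and Fib-3 7.998% and 13.6%. The lists were chosen with earlier results known, so nothing is read from the counts. Markers of other cell types differed in ECs too, and their part in the EC counts was not tested. The neutrophil sum in ECs was 279 CPM in diabetic (238 UMIs, 5 of 6 markers) and 10.1 CPM in control cells (11 UMIs, 2 of 6), the adipocyte sum 112 CPM (5 of 5 markers) and 2.74 CPM (2 of 5), and the pericyte sum 25.8 and 7.32 CPM (5 of 6 in both). In VSMCs-2 the erythroid sum was 11577 CPM in diabetic (6 of 6 markers) and 116 CPM in control cells (4 of 6), and the pericyte sum had a ratio of 1.86. Of 15 other toll-like receptors and accessory proteins, 7 had 30 UMIs in Mac, of which none was higher and 2 were lower. These were Ly86 (MD-1, the partner of the receptor homologue CD180), at 167 CPM in diabetic and 328 CPM in control Mac (ratio 0.51), and Unc93b1, which escorts intracellular receptors to endosomes, at 398 and 682 CPM (0.58). Tlr7, an endosomal receptor for single-stranded RNA, had 46.9 and 51.6 CPM and was within the limit. In ECs 3 genes of this list were measured, with Cd36, a lipid scavenger receptor, at 152 CPM in diabetic and 78.7 CPM in control cells (1.94), and Unc93b1 at 29.3 and 44.8 CPM (0.65). In VSMCs-2 only Unc93b1 reached 30 UMIs, at 5.95 and 10.4 CPM (34 and 29 UMIs, 0.57), and in Fib-2 none of 3 was past the fold. The macrophage marker sum had ratios of 0.589 in ECs and 0.220 in VSMCs-2. For Unc93b1, free RNA and expression by these cells were not told apart.

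Among adaptors and kinases, 13 of 15 were measured in Mac and 2 were higher. Chuk, the IKK-alpha kinase, had 23.9 CPM in diabetic and 12.2 CPM in control Mac (1.95, 1.13 to 3.37), and Ikbkg, the IKK regulatory subunit NEMO, 12.4 and 7.64 CPM (1.62, 0.76 to 3.37). The list median in Mac was 0.27 on the log2 scale. In VSMCs-2, 13 were measured, with Traf6 (2.09) and Traf3 (1.51) higher and Tirap (0.65) lower in the diabetic library. In Fib-2 1 of 11 was higher (Irak2, 1.60), and in ECs 2 of 6 were (Irak1, 1.59, and Tab2, 1.71). Tab2 was lower in Fib-3 (4 diabetic and 28 control UMIs, 0.26).

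The other NF-kappaB and IkappaB genes differed by class. In Fib-2, where Nfkb1 was higher, 3 of 8 measured genes were higher and none lower, beside 8.59% and 6.17% of all genes. Bcl3, a nuclear IkappaB protein, had 22.2 CPM in diabetic and 11.001 CPM in control Fib-2 (2.02, 1.30 to 3.16), Nfkb2, the p52 precursor, 20.8 and 12.7 CPM (1.64, 1.06 to 2.54), and Nfkbie, an IkappaB, 8.51 and 5.23 CPM (1.63, 0.81 to 3.28). The list median was 0.47 there, beside 0.03 over all genes. In ECs 2 of 5 were higher and none lower, both nuclear IkappaB proteins, with Nfkbiz at 149 CPM in diabetic and 69.5 CPM in control cells (2.14, 1.60 to 2.88) and Nfkbid at 28.1 and 12.8 CPM (2.19, 1.09 to 4.59). Nfkbiz was also higher in Fib-3 (1.70). In Mac 1 of 9 was higher and 1 lower, Relb at 54.0 CPM in diabetic and 35.9 CPM in control cells (1.503) and Nfkbib at 178 and 267 CPM (0.67). Nfkbia in Mac lay just inside the limit, at 861 and 1278 CPM (0.67, 0.63 to 0.72), and in VSMCs-2 none of 6 was past the fold.

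Of the 15 inhibitors of the pathway, none of 12 measured in Mac was past the fold. In VSMCs-2 4 of 10 were higher and none lower, the largest count for this list, beside 8.63% and 5.69% of all genes. They were Socs3 (133 CPM in diabetic and 84.8 CPM in control cells, 1.57, 1.36 to 1.83) and Socs1 (13.1 and 7.19 CPM, 1.83), which act on cytokine receptor signalling, Tnip2, a partner of A20 (12.6 and 6.47 CPM, 1.95), and Otulin, a linear-ubiquitin protease (7.34 and 3.95 CPM, 1.86). Fib-2 had 2 of 10 higher, Socs1 (2.04) and Tnip2 (1.96). ECs had 2 of 7 higher, Socs3 (1.96) and Zc3h12a (1.90), the RNase Regnase-1. Fib-3 had 2 of 6 higher, Socs3 (1.64) and the ubiquitin ligase Peli1 (2.11). Whether Peli1, counted here by its place in the list, acts as an inhibitor in these cells was not measured.

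Inflammatory target genes ran in both directions in Mac, with 3 of 20 higher and 6 lower in the diabetic library. Of all genes in Mac, 13.9% were higher and 9.37% lower. The 6 lower genes were Vcam1 (25.7 CPM in diabetic and 68.0 CPM in control cells, 0.38), an adhesion molecule, and the chemokines Cxcl1 (98.3 and 231 CPM, 0.43), Ccl4 (398 and 696 CPM, 0.57), Cxcl2 (1392 and 2196 CPM, 0.63), Ccl2 (1290 and 1986 CPM, 0.65) and Ccl3 (270 and 406 CPM, 0.67). Against that direction, the cytokine Il1b had 389 CPM in diabetic and 236 CPM in control Mac (1.65, 1.46 to 1.87), Traf1 105 and 64.2 CPM (1.64), and Il6 20.4 and 8.79 CPM (2.32). In Fib-2 3 of 14 were higher, the prostaglandin synthase Ptgs2 (140 CPM in diabetic and 70.4 CPM in control cells, 1.99), the chemokine Ccl7 (182 and 103 CPM, 1.78) and Il6 (337 and 194 CPM, 1.74), and 1 was lower, Ccl4 (1 and 29 UMIs, 0.059, 0.0015 to 0.36). In ECs 3 of 11 were higher, Cxcl10 (3.72), Cxcl1 (1.86) and the adhesion molecule Icam1 (616 CPM in diabetic and 389 CPM in control cells, 1.58), and Ccl7 was lower (9 and 30 UMIs, 0.38). VSMCs-2 had 1 of 12 higher, Cxcl1 (44.2 CPM in diabetic and 28.7 CPM in control cells, 1.54), and 6 lower. Among the 6 were Ccl7 (22 and 72 UMIs, 0.15), Vcam1 (31.7 CPM in diabetic and 108 CPM in control cells, 0.29), Ccl2 (23 and 34 UMIs, 0.33) and Cxcl2 (25 and 34 UMIs, 0.36). The macrophage marker sum had ratios of 0.220 in VSMCs-2, 0.214 in Fib-2 and 0.589 in ECs. For the lower chemokines of these 3 classes, free RNA and expression by the cells themselves were therefore not told apart. In Fib-3 4 of 11 were higher, led by Cxcl2 at 146 CPM in diabetic and 23.7 CPM in control cells (6.17, 3.54 to 11.3), and in Fib-1 Ccl2 (2.22), Ccl7 (2.12) and Il6 (1.63) were higher and Cxcl2 (0.63) lower.

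Immediate early genes, which tissue digestion can induce, were higher in some of the same classes. Their summed level was 4386 CPM in diabetic and 4014 CPM in control Mac (ratio 1.09), 13206 and 9576 CPM in ECs (1.38), 12907 and 10785 CPM in Fib-2 (1.20), and 10437 and 10470 CPM in VSMCs-2 (1.00). Of the 21 genes, 8 of 19 were past the fold toward higher in ECs, beside 8.22% of all genes, and 8 of 21 in Fib-2, beside 8.59%. Mac had 4 of 20, beside 13.9%, and VSMCs-2 1 of 21, beside 8.63%. VSMCs-1 had 5 of 15, beside 8.74%, Fib-1 3 of 19, beside 7.86%, and Fib-3 2 of 18, beside 7.998%. In Mac, Nr4a3 was at 106 CPM in diabetic and 35.9 CPM in control cells (2.96), and Ier2 at 95.6 and 53.5 CPM (1.79), while Ier3 was lower (223 and 338 CPM, 0.66). The part of digestion in the values of the 8 genes was not tested.

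**Figure D5:**
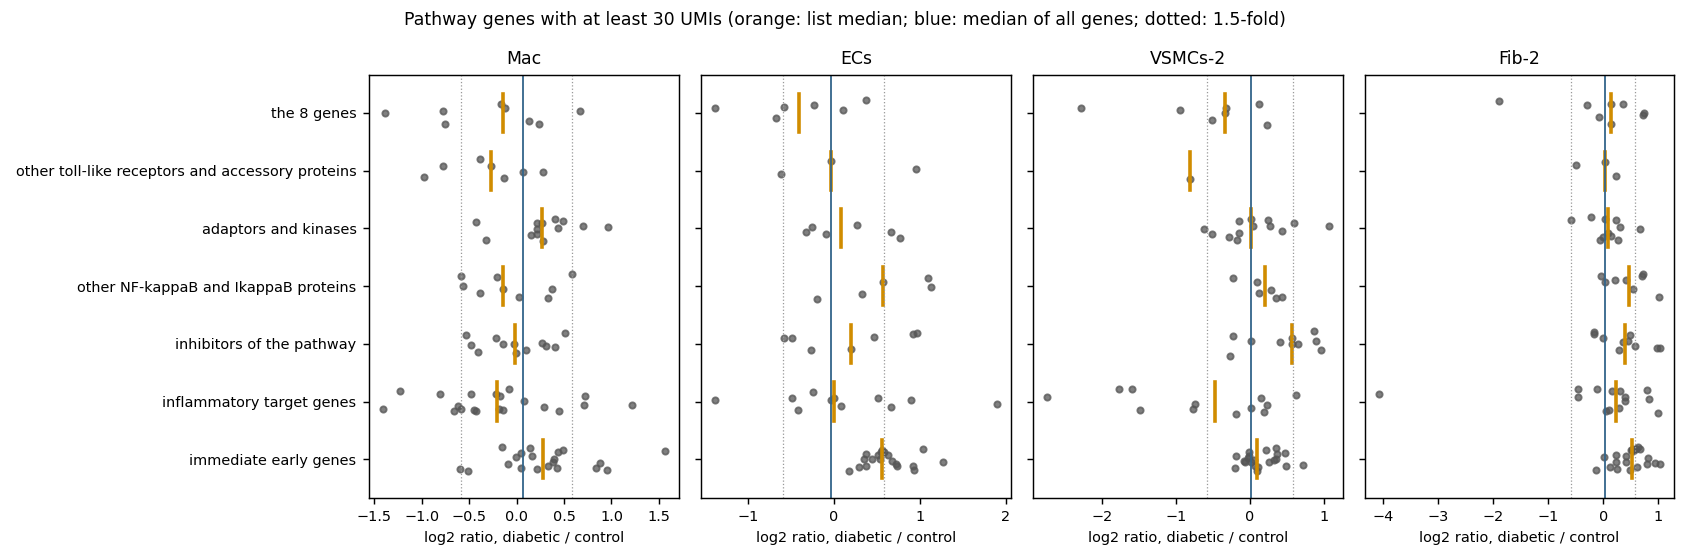
Log2 ratio of diabetic over control (x) of single genes with at least 30 UMIs (points) in 7 lists (y) for Mac, ECs, VSMCs-2 and Fib-2, with list medians in orange, the median of all genes in blue and 1.5-fold as dotted lines. The list of NF-kappaB and IkappaB proteins has its median at 0.47 in Fib-2 and -0.14 in Mac, and the inflammatory targets at 0.23 and -0.20.

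The genes whose profile was most like each of the 8 over 14 profiles (7 classes in 2 libraries) were found by Pearson's r of log2(CPM + 1) among 7717 genes. The profiles of a class in both libraries share their cell type, and those of a library its depth and handling, so these r values are descriptive. Cd14 was most like Ccl9 (0.98), Ccl6 (0.97) and Cd86 (0.97), and Tlr2 most like Snx2, Slfn2 and Gmfg (each 0.96). For Ly96 they were Fes (0.93), Ezr (0.92) and Arl6ip1 (0.92), for Myd88 Fcgrt (0.93), Acp5 (0.92) and Tgfbi (0.92), and for Rela Smc4 (0.88), Fau (0.87) and Ehd1 (0.86). Nfkb1 was most like Pim1 (0.97), Raph1 (0.97) and Bcl3 (0.96), and Tnfaip3 most like Bcl3 (0.96), Mcl1 (0.96) and B4galt5 (0.95), so Bcl3 stood in the top 3 of both. Tlr4 had the lower values of Socs4 (0.88), Zdhhc20 (0.85) and Igbp1 (0.84). With log2(CPM + 10), 12 of the 24 named genes stayed among the top 3, among them all 3 of Nfkb1 and of Rela and none of Ly96 and Tnfaip3.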

How the data were processed

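Aortic cells of 1 diabetic and 1 control pool of 4 mice were profiled with 10x Genomics 3′ v2 chemistry, per the labels' protocols. Each deposited matrix gives, for every gene and barcode, the raw count of UMIs as the authors' software wrote it. The submitters' processing notes name Cell Ranger 3.1.0, Partek and the build mm10. Which annotation was used for counting, and how barcodes were filtered, is not given in the sources used here. Cell classes are the authors' deposited annotation, and 2 diabetic barcodes listed with no class were left out. Counts were summed per class and library and scaled to CPM, with exact Poisson intervals for levels, exact conditional binomial intervals for ratios and exact Clopper-Pearson intervals for shares of cells. All intervals and the floor of 3 UMIs for a count of 0 cover counting error only. Digestion, incubation and sorting can induce stress genes and set class shares. The number of value columns left unused was 0, and annotated cells held 11833577 diabetic and 12390769 control UMIs. Cells were thinned without replacement to 1000 UMIs (seed 1) for shares, which left out shallower cells (30 diabetic and 13 control in Mac). No doublet caller was run. The 8 genes, the gene lists and the rules were chosen with earlier results of these data known. The 8 genes were named in every class of at least 50 cells per library. Up to 4 genes per list and class at least 1.5-fold apart with 30 UMIs were named, ranked by the interval bound nearest to 1, with those that went against their list. In Mac, Ccl2 and Ccl3, Nfkbia, Tlr7 and the marker genes were added after their values were seen. Alternatives were trimmed mean (TMM) scaling with edgeR 4.0.16, other totals, equal cell weights, thinning, other count minimums and folds, and removal of cells. Interval coverage was checked on simulated Poisson counts, which share the assumption of the intervals, so spread among cells or mice was not covered. Python 3.11.15 with scipy 1.17.1 was used.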

Additional observations from a re-analysis of the deposited data

Results flagged for a closer look

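Ly96 lay past 1.5-fold in opposite directions between classes. Its ratio of diabetic over control was 1.78 in Fib-1, against 0.592 in Mac, 0.628 in ECs and 0.516 in Fib-3. With 1 library per group the difference between the classes was not tested. The Fib-1 value rests on 17 diabetic and 15 control UMIs.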

How the results depend on the processing

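No paired analysis was possible because each group had 1 library. Of 38 ratios with 30 UMIs, 14 were past 1.5-fold. Under the alternatives counted here, none of these 14 changed direction, and 10 stayed past 1.5-fold under each. The scale per 1000 macrophage marker UMIs was not counted among them. On that scale Cd14 in Mac stayed lower (0.59), but other called ratios crossed 1. Among these were Cd14 in Fib-2 (1.26), Tlr2 in VSMCs-2 (2.35), and Ly96 in ECs (1.07) and Fib-3 (6.97). Ratios that left their main interval under the counted alternatives were as follows. Cd14 in Mac (main 0.382) was 0.352 with trimmed mean scaling, which shifted every log2 ratio in Mac by -0.12, 0.411 with the total without mitochondrial, ribosomal protein and haemoglobin genes, and, in choices added after seeing the data, 0.449 in cells with and 0.306 in cells without a resident macrophage marker. Tlr2 in Mac was 0.681 and 0.471 in those cells. Nfkb1 in Mac was 0.989 with equal weight per cell. Thinning to 1000 UMIs gave these values for Tlr4, in Mac 2.50, in Fib-2 0.425 and in VSMCs-2 2.03, Ly96 0.847 in Mac and 0.367 in ECs, Tlr2 0.193 in VSMCs-2, and Rela 2.49 in ECs and 0.300 in VSMCs-1, all from few UMIs. The 4 ratios that ended within 1.5-fold under some counted alternative were Tnfaip3 in Mac (down to 1.25), Ly96 in Mac (up to 0.847), Ly96 in Fib-1 (1.14) and Tlr2 in Mac (0.681). The causes were not tested. Removing cells with 3 or more macrophage marker UMIs, over 10% haemoglobin or the most UMIs left every ratio inside its interval. Of 84 list counts, 9 moved by over 1.5 times with trimmed mean scaling, 35 with a 2-fold limit, 29 with a minimum of 10 UMIs and 25 with 100 UMIs. Of 112 shares of cells, 58 left their interval at 2000 UMIs and 75 without thinning. Depth limits Tlr4 in all classes and Tnfaip3 outside Mac and Fib-2.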
